A study of Mus musculus with 6 samples.

Results

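The genes described here are 51 splicing and RNA processing genes of the mouse melanocyte line Melan-a, an immortal pigmented line from C57BL/6 mice. They were chosen by symbol, as probe sets whose platform annotation gives a single symbol that names an SF3a or SF3b subunit, a small nuclear ribonucleoprotein (snRNP), SR or Prp splicing factor, an hnRNP, a DEAD or DEAH helicase, an RBM, Lsm or exosome protein, a cleavage and polyadenylation factor, or a Khdrbs protein. Ddx58 was left out, being a sensor of foreign RNA. They make up 51 of 7486 named genes on the table of 16383 probe sets, and each had a single probe set. Another 5 matching probe sets carried several symbols and were not used. The named genes on the table lie almost only on chromosomes 1 to 4, and so do the members, with 8 on chromosome 1, 18 on chromosome 2, 12 on chromosome 3 and 13 on chromosome 4 by probe set number. Most of the spliceosome was therefore not analysed here.

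Cultures of female Melan-a cells, grown with serum and the phorbol ester TPA, received an siRNA, a short RNA that silences its target, by lipofection with magnetofection. It was directed at Dicer (siDicer) or was the control (siScr), and cells were lysed at 24 hours. Each group held 3 arrays, and replicates 1, 2 and 3 were at passages 47, 54 and 56 in both groups. Total RNA was hybridised to mouse Clariom D arrays, and levels are log2 signals. Dicer1 was not analysed here, so the groups rest on the labels. In the paired fit, p-values set the mean siDicer minus siScr difference against its variation between these pairs of cultures. That variation was estimated with information shared over all probe sets.

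Introns are removed from pre-mRNA by the spliceosome, which assembles from snRNPs, each a small nuclear RNA in a ring of Sm or Lsm proteins, with RNA helicases that drive its rearrangements. SR proteins and hnRNPs bind the transcript and bias which splice sites are used. Cleavage factors then cut the end of the transcript for polyadenylation, exon junction proteins mark the spliced mRNA, and the exosome trims or degrades RNA. Dicer acts in another RNA pathway, in which it cuts microRNA precursors, so the comparison asks whether mRNAs of this machinery differed when Dicer was targeted.

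No member passed the threshold of an adjusted p under 0.05 in limma's paired fit, in which replicate number was a block. That held for 0 of 51 members, against 0.995% of all probe sets (124 higher and 39 lower in siDicer). The fitted log2 changes, siDicer minus siScr, ran from -0.22 for Exosc9 to 0.20 for Prpf38b, so no fitted change was larger than 1.17-fold. Their median was -0.03, against -0.01 over all probe sets, and their median size without sign was 0.06, against 0.07 over all probe sets. Of the 51, 18 had a change above 0 and 33 one below, beside 7270 and 9113 of the 16383 probe sets and 3077 and 4453 of the 7530 with a single symbol. The 95% intervals of all members lay between -0.36 and 0.33 log2 units, so each excluded a 1.5-fold change in either direction (0.58 log2 units), as did those of 98.5% of all probe sets. Without the block, too, 0 members passed, and the smallest adjusted p was then 0.374 against 0.158 with it.

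At an unadjusted p under 0.05, limma listed 7 of 51 members, against 15.7% of all probe sets and 21.3% of those above a background gauge of 4.22, the 95th percentile of the levels of 426 olfactory and vomeronasal receptor genes. Of these, 3 were higher and 4 lower in siDicer, against 8.82% and 6.85% of all probe sets. The groups did not overlap for 5 members, 3 higher and 2 lower in siDicer, where 7.57% of all probe sets were higher and 8.29% lower without overlap. All 3 pairs were higher in siDicer for 6 members (17.9% of probe sets) and lower for 18 (22.6%). The members' share was above that of the array for the 18 lower in every pair. It was close to that of the array for the 4 lower at an unadjusted p, and below it for the other counts. Of the 7530 probe sets with a single symbol, as all members have, 2098 were lower in every pair. In limma, 565 of those 7530 were lower at an unadjusted p under 0.05. None of these differences was tested.

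**Figure D1:**
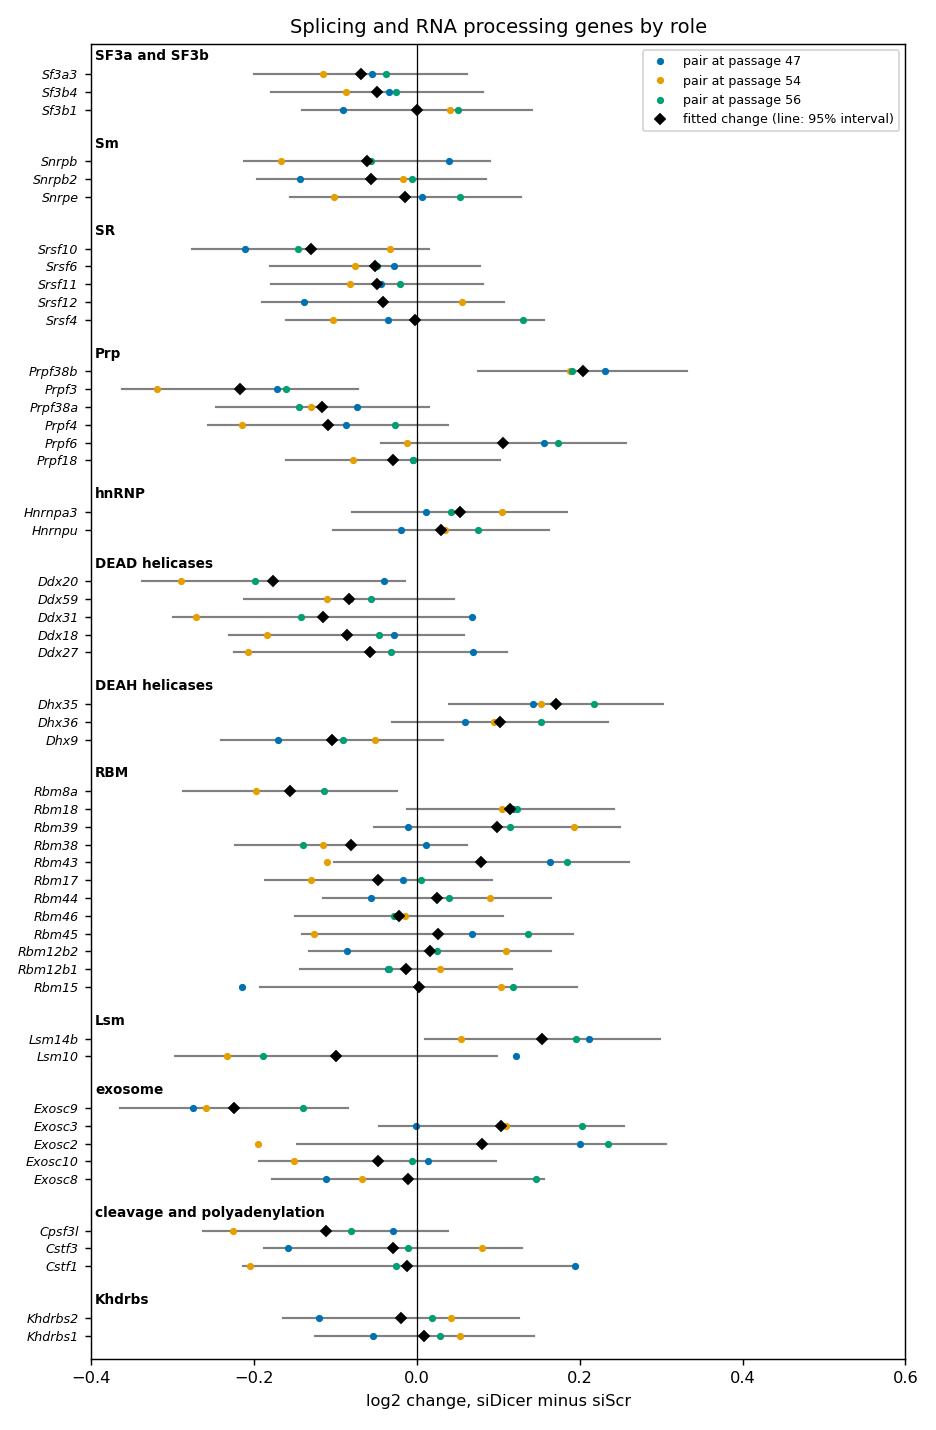
Log2 change, siDicer minus siScr, of the 51 members, grouped by role. The cleavage and polyadenylation group was formed by symbol and includes Cpsf3l, now named Ints11, of the Integrator complex. Coloured points are the 3 pairs of arrays, diamonds the fitted changes and lines their 95% intervals, none of which reaches beyond -0.36 or 0.33.

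The U2 snRNP recognises the intron branch point through SF3a and SF3b, and 0 of its 3 measured subunits passed, with changes from -0.07 to 0.00. Sf3b1, the large subunit that clamps the branch point, was at 9.66, 9.86 and 9.83 in siDicer replicates 1 to 3 and at 9.75, 9.82 and 9.78 in siScr. The groups overlap, with a change of 0.00 and a 95% interval from -0.14 to 0.14. Sf3a3 was at 8.31, 8.45 and 8.51 in siDicer against 8.37, 8.56 and 8.54 in siScr, a change of -0.07 (limma, adjusted p = 0.576), and Sf3b4 had a change of -0.05. Of the Sm group, Snrpb, a core Sm protein, had levels of 6.95, 7.01 and 7.01 against 6.91, 7.18 and 7.06, a change of -0.06 with an interval from -0.21 to 0.09. Snrpe, another core Sm protein, and Snrpb2, a U2 snRNP protein, had changes of -0.01 and -0.06.

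The SR proteins all had changes below 0, from -0.13 for Srsf10 to 0.00 for Srsf4, with a median of -0.05, and 0 of 5 passed. The signs of Srsf4 and Srsf12 turned in some of the refits. Srsf10, which acts as a splicing repressor when dephosphorylated, measured 8.38, 8.66 and 8.56 in siDicer and 8.59, 8.69 and 8.70 in siScr. It was lower in all 3 pairs, but siDicer replicate 2 lay within the siScr range, and the change of -0.13 had a standard error of 0.06 (limma, adjusted p = 0.36). Srsf6 and Srsf11 each had a change of -0.05. Srsf12, the dimmest of these at a mean level of 4.54, stood just above the background gauge.

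The Prp factors held both signs. Prpf38b, an SR-rich relative of a spliceosome activation factor, was at 8.16, 8.26 and 8.17 in siDicer and at 7.92, 8.07 and 7.98 in siScr. Every siDicer array lay above every siScr array, by a small margin, and the change of 0.20 ± 0.05 (SE) was the largest above 0 among the members (limma, adjusted p = 0.163). The related Prpf38a, the activation factor itself, pointed the other way, at 7.32, 7.59 and 7.56 against 7.39, 7.72 and 7.71, a change of -0.12 with an interval from -0.25 to 0.01. That interval does not meet the one of Prpf38b, 0.07 to 0.33, and the difference between the paralogues was not tested.

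Prpf3 and Prpf4 sit together on the U4/U6 snRNP. Prpf3 was at 6.71, 6.83 and 6.80 in siDicer and at 6.89, 7.15 and 6.96 in siScr, so the groups did not overlap and siDicer was lower. Its change was -0.22 ± 0.06 (SE), with an adjusted p of 0.176 in limma. Prpf4 had levels of 7.57, 7.75 and 7.84 against 7.66, 7.96 and 7.86, a change of -0.11 with overlapping groups. Prpf6, which bridges the U5 and U4/U6 snRNPs, was at 8.39, 8.35 and 8.48 against 8.23, 8.36 and 8.31. It was higher in the pairs at passages 47 and 56 and level at passage 54, with a change of 0.11 (limma, adjusted p = 0.459). Prpf18, a factor of the second catalytic step, had a change of -0.03.

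The hnRNPs Hnrnpu, a scaffold protein of nuclear RNA, and Hnrnpa3 had changes of 0.03 and 0.05. Hnrnpa3 was the brightest member, at 10.80, 10.99 and 11.02 in siDicer and 10.79, 10.89 and 10.98 in siScr. By its number the probe set lies on chromosome 3, whereas RefSeq has the gene on chromosome 2, and which sequence it measures was not settled. After quantile normalization its change was -0.01.

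All 5 DEAD-box helicases had changes below 0, with a median of -0.09. Ddx20, a member of the SMN complex that loads Sm rings onto small nuclear RNA, measured 6.53, 6.69 and 6.78 in siDicer and 6.57, 6.98 and 6.98 in siScr. It was lower in all 3 pairs but the groups overlapped at passage 47, with a change of -0.18 ± 0.07 (SE) (limma, adjusted p = 0.283). Ddx18, Ddx27 and Ddx31 act mainly in the nucleolus, in ribosome assembly, and not in splicing. Their changes were -0.09, -0.06 and -0.12, and Ddx59 had one of -0.08.

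The pair at passage 54 gave the lowest values. Its median over the 5 DEAD-box genes was -0.21, against -0.03 at passage 47 and -0.06 at passage 56. Without that pair their median was -0.04 and Ddx27 turned above 0. Over all members, 24 of 51 had their highest level of the 6 arrays on siScr replicate 2, against 17.0% of all probe sets. The share was 20.3% of probe sets with a single symbol and 19 of 38 other RNA processing genes, described below. The medians of the members by pair were -0.03, -0.08 and -0.01 at passages 47, 54 and 56. The RNA integrity numbers of the passage 54 arrays were 9.7 in siDicer and 9.8 in siScr and those of all others 10.0, and their part in this was not tested.

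The DEAH-box helicases did not share a sign. Dhx35, found in the catalytic spliceosome, was at 7.06, 7.09 and 7.06 in siDicer and at 6.92, 6.94 and 6.84 in siScr. The groups did not overlap, and the change of 0.17 ± 0.05 (SE) came with an adjusted p of 0.223 in limma. Dhx36, which unwinds G-quadruplexes, was higher in siDicer in all 3 pairs, at 8.26, 8.46 and 8.49 against 8.20, 8.37 and 8.34, a change of 0.10 with an interval from -0.03 to 0.23. Dhx9, RNA helicase A, which unwinds double-stranded RNA, was lower in all 3 pairs, at 9.60, 9.80 and 9.87 against 9.77, 9.85 and 9.96. Its change was -0.10 with an interval from -0.24 to 0.03.

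These DEAH-box genes show a sequence feature that the choice of members did not use. CCGGAAG, the core bound by ETS transcription factors, was found on either strand in the promoter windows of 16 of 42 members with a window (38.1%), against 9.93% of 27025 genes and 12.9% of 17491 coding genes. A window holds 250 bases before and 50 after a start in RefSeq (GRCm38.p6), and genes with several starts had several windows. Dhx35, Dhx36 and Dhx9 all hold it, and their windows are shown because the genes share the motif and differ in sign. They are written 5′ to 3′, with the core in capitals, on either strand.
Dhx35, chr2:158794557-158794856, plus strand: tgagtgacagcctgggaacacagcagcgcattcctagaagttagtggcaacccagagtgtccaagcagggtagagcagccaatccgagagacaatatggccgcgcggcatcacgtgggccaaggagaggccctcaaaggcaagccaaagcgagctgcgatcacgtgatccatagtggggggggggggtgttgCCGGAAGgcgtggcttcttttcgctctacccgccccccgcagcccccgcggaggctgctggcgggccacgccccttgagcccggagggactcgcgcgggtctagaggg
Dhx36, chr3:62506939-62507238, minus strand: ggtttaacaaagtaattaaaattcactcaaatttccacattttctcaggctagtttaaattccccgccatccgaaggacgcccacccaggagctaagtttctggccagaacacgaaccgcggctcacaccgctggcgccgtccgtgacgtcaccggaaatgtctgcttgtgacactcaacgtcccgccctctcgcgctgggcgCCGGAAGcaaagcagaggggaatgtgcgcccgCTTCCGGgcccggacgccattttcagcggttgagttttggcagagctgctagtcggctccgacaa
Dhx9, chr1:153487611-153487910, minus strand: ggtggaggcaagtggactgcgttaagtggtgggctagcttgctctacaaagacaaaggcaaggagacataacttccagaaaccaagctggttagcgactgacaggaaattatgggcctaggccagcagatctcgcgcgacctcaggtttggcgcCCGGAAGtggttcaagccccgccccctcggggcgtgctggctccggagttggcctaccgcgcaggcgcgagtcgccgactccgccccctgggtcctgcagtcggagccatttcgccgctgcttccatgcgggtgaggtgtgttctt
Dhx36 holds 2 copies, in opposite orientation, and the others 1 each. Over all members searched, the median change was -0.02 with the core and -0.03 without it, a small difference that was not tested. GGGCGG, the GC box, was in 32 of 42 (76.2%, against 38.2% of all genes and 49.2% of coding genes). TATAAA was in 1 of 42, Rbm43 (2.38%, against 15.7% and 14.8%), and CCAAT in 18 (42.9%, against 41.1% and 42.3%). CACGTG, the E-box core, was in 6 (14.3%, against 8.09% and 8.91%). Matches of different motifs may overlap. They were counted after the expression values had been seen, and they describe letters, not binding. A further motif, a palindrome, was searched and counted in an earlier run and is not given here.

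Of 12 RBM proteins, named only for an RNA-binding motif, 7 had changes above 0 and 5 below, with a median of 0.01 that turned below 0 after quantile normalization and cyclic loess. Rbm8a, the Y14 subunit of the exon junction complex, measured 8.96, 9.04 and 9.03 in siDicer and 9.12, 9.24 and 9.15 in siScr, so every siDicer array was lower. Its change was -0.16 ± 0.05 (SE) (limma, adjusted p = 0.253). Rbm18 was higher by nearly the same amount at each passage, 0.12, 0.10 and 0.12, at 7.90, 8.16 and 7.997 against 7.79, 8.06 and 7.87. The groups nevertheless overlapped, because the passages differ by more, and its fitted change of 0.11 ± 0.05 (SE) had an adjusted p of 0.357 in limma.

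Rbm39, a splicing factor that binds U2AF, and Rbm17, which acts at the acceptor splice site, had changes of 0.10 and -0.05. Rbm15, an adaptor of the m6A methyltransferase, had pairs of both signs, with -0.22 at passage 47 and 0.10 and 0.12 at passages 54 and 56. Rbm38 had a change of -0.08, Rbm43 one of 0.08 and Rbm45 one of 0.03. The neighbours Rbm12b1 and Rbm12b2, which may share signal as paralogues, had changes of -0.01 and 0.02. Rbm44 and Rbm46 lay below the receptor background gauge, at mean levels of 2.86 and 3.24, as did Khdrbs2 at 3.56. The other 48 members lay above it.

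Lsm14b, an Sm-like protein of mRNA storage granules, was at 8.02, 7.88 and 8.02 in siDicer and at 7.81, 7.83 and 7.82 in siScr. The groups did not overlap, the 3 siScr arrays lay within 0.02 of each other, and the change was 0.15 ± 0.06 (SE) (limma, adjusted p = 0.292). Lsm10, part of the U7 snRNP that processes histone mRNA, had a change of -0.10, with 0.12 at passage 47 and -0.23 and -0.19 at the later passages.

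**Figure D2:**
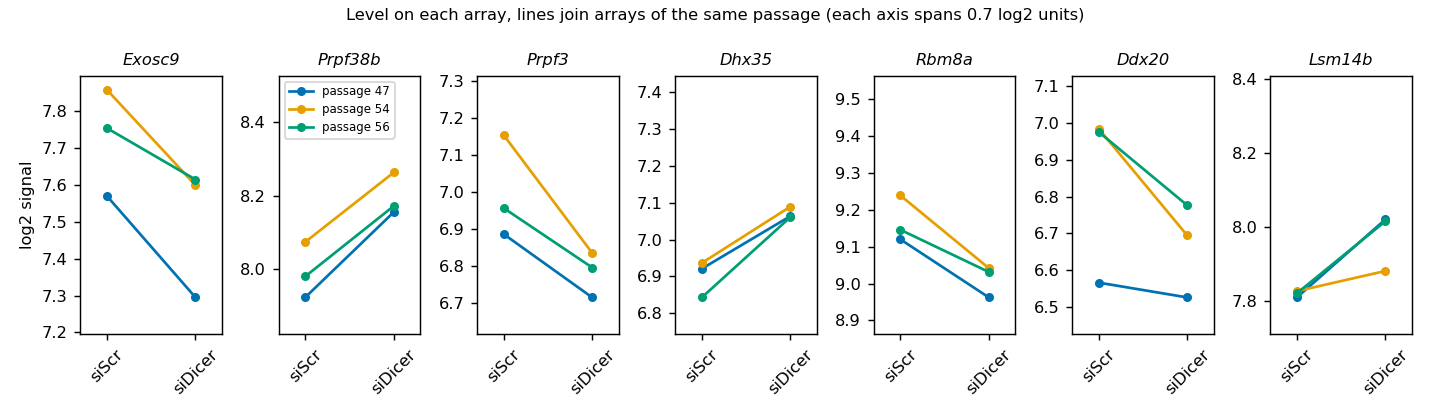
Log2 signal of the 7 members with the smallest p on each of the 6 arrays, with lines joining siScr and siDicer arrays of the same passage. Exosc9, Prpf3, Rbm8a and Ddx20 slope down and Prpf38b, Dhx35 and Lsm14b up in every pair, and passage 47 lies lowest in both groups for 5 of them, all but Dhx35 and Lsm14b.

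The exosome, a complex of RNA-binding and degrading subunits, had 0 of 5 members past the threshold and a median of -0.01, which turned above 0 with median centring. Exosc9, a ring subunit, had the smallest p of all members. It was at 7.29, 7.60 and 7.61 in siDicer and at 7.57, 7.86 and 7.75 in siScr, lower in every pair while the groups overlapped. Its change of -0.22 ± 0.06 (SE) had an adjusted p of 0.158 in limma, and 0.528 without the block. Its gene model overlaps that of Ccna2, cyclin A2, by 863 bases in the RefSeq table, and Ccna2 had a change of -0.33 (limma, adjusted p = 0.117). For some other members the value lay far from that of an overlapping gene. Rbm15, at 0.00, overlaps Slc16a4 by 6605 bases, which had a change of 0.43 (limma, adjusted p = 0.051), and Rbm12b2, at 0.02, overlaps Tmem67 by 651 bases, which had 0.24 (limma, adjusted p = 0.12). In all, 9 members had such a neighbour on the table, and whether any neighbour reaches a member's signal was not tested. The other subunits gave -0.01 for Exosc8, -0.05 for the nuclease Exosc10, 0.10 for the cap subunit Exosc3 and 0.08 for the cap subunit Exosc2. Exosc2 spanned 7.22 to 7.63 in siScr alone, and its interval, from -0.15 to 0.31, was the widest of the 51.

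Of the transcript cleavage factors, Cpsf3l, now named Ints11, is the nuclease of the Integrator complex, which cuts small nuclear RNA and other transcripts. It was at 7.56, 7.60 and 7.54 in siDicer and 7.59, 7.83 and 7.62 in siScr, a change of -0.11 with most of the difference at passage 54 (limma, adjusted p = 0.437). Cstf3 and Cstf1, subunits of the cleavage stimulation factor, had changes of -0.03 and -0.01. Khdrbs1, the splicing regulator Sam68, measured 7.79, 7.93 and 7.93 against 7.84, 7.88 and 7.90, a change of 0.01. Its relative Khdrbs2 was at 3.57, 3.53 and 3.54 against 3.69, 3.48 and 3.53, below the background gauge, with a change of -0.02 that turned above 0 after quantile normalization and cyclic loess.

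Cstf1 shares its 5′ region with a gene that did fall. Aurka, a mitotic kinase, starts 433 bases from Cstf1 on the other strand of chromosome 2 in RefSeq (GRCm38.p6). Aurka was at 8.08, 8.47 and 8.55 in siDicer and 8.66, 9.04 and 9.08 in siScr, and fell by 0.57, 0.57 and 0.52 in the 3 pairs (limma, fitted change -0.56, interval from -0.68 to -0.43, adjusted p = 0.0234). Without the block Aurka did not pass, with an adjusted p of 0.239 in limma. Over their full extents in RefSeq the 2 gene models overlap by 242 bases, although transcripts from the starts given here lead away from each other. Cstf1 was at 7.66, 7.73 and 7.71 against 7.47, 7.93 and 7.73, with an interval from -0.21 to 0.19 that does not meet that of Aurka. The promoter windows of both are given 5′ to 3′ on their own strands, with the 68 bases that lie in both in capitals.
Cstf1, chr2:172370753-172371052, plus strand: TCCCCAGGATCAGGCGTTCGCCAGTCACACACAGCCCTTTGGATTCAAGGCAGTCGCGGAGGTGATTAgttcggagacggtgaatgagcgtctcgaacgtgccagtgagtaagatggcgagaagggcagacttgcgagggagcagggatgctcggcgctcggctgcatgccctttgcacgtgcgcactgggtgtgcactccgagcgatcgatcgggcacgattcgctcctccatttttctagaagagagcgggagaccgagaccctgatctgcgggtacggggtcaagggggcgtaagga
Aurka, chr2:172370521-172370820, minus strand: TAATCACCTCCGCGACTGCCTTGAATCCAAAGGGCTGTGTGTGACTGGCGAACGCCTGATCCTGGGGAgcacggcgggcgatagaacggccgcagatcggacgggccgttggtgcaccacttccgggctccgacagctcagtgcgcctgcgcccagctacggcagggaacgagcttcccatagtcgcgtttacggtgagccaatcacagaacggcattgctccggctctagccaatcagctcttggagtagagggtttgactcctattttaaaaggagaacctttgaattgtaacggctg
The pair was singled out after its values were seen, from 7 members with a coding gene on the table that starts within 1000 bases on the other strand. For the 6 others, Ddx31 with Gtf3c4, Exosc8 with Alg5, Prpf38a with Orc1, Prpf4 with Cdc26, Rbm18 with Mrrf and Srsf11 with Lrrc40, neither gene passed and the intervals of both overlapped.

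**Figure D3:**
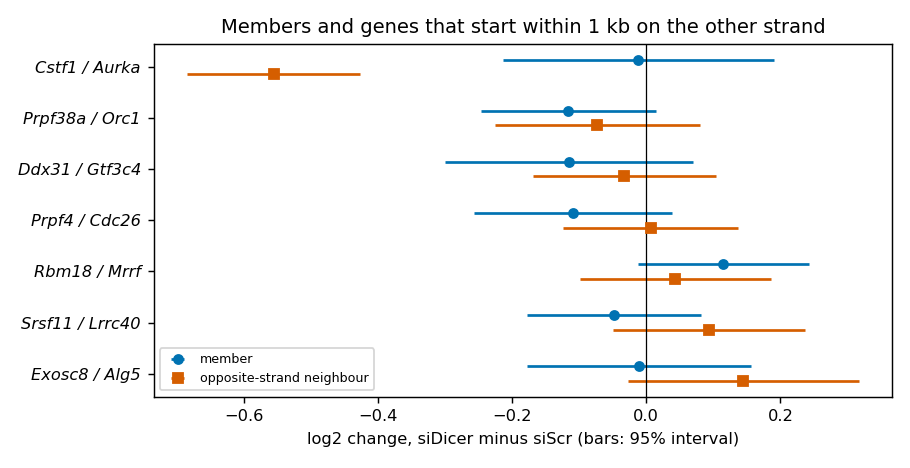
Log2 change, siDicer minus siScr, of 7 members (circles) and of the coding gene that starts within 1000 bases on the other strand (squares), with 95% intervals. Aurka, at -0.56, stands apart from Cstf1, at -0.01, and the intervals overlap in the 6 other pairs.

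The members' levels also differed between passages. Passage 47 was the lowest in both groups for 35 of 51 members, against 15.7% of all probe sets and 21.6% of those above the receptor background. The mean of passages 54 and 56 exceeded passage 47 by a median of 0.10 in siDicer and 0.13 in siScr, where all probe sets had a median of -0.01 in each group. The pattern was not particular to the members. Of 38 other RNA processing genes, described below, 21 were lowest at passage 47 in both groups. Their median differences were 0.11 in siDicer and 0.10 in siScr. All 3 SF3, all 3 Sm, all 5 exosome and both hnRNP genes were lowest at passage 47 in both groups, as were 4 of 5 SR, 5 of 6 Prp and 2 of 3 DEAH-box genes. Fewer of the others were, with 7 of 12 RBM, 2 of 5 DEAD-box, 1 of 3 transcript cleavage, 1 of 2 Khdrbs and 0 of 2 Lsm genes.

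Ddx20 differed by 0.41 between the later passages and passage 47 in siScr and by 0.21 in siDicer, Prpf38a by 0.32 and 0.26, and Exosc9 by 0.24 and 0.31. Lsm14b and Ddx59 did not share this direction, with differences of 0.01 and -0.07, and of -0.09 and -0.09. The 19 measured cell division genes were all lowest at passage 47 in both groups as well, with median differences of 0.24 in siScr and 0.38 in siDicer. Passage 47 is a single pair of cultures, so passage and that culture cannot be told apart, and no test was made.

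**Figure D4:**
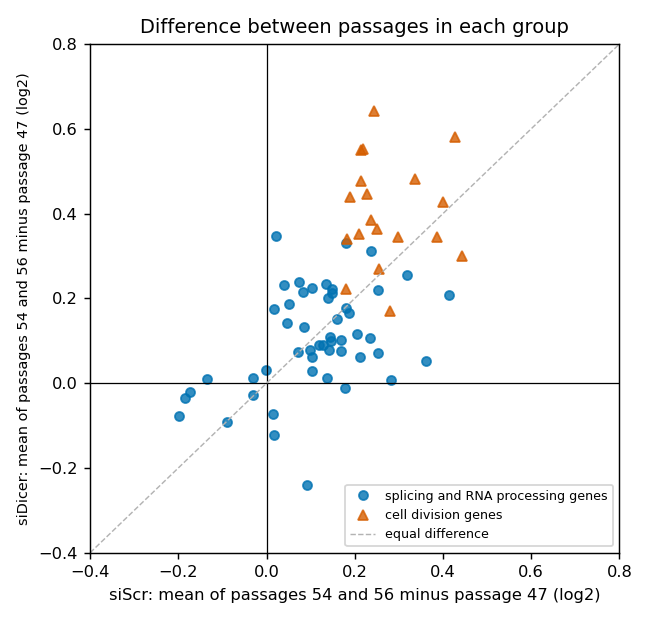
Mean of passages 54 and 56 minus passage 47, in log2 units, in siScr (horizontal) and siDicer (vertical), for the 51 members (circles) and 19 cell division genes (triangles). Most members lie to the upper right of 0, with medians of 0.13 and 0.10, and the cell division genes farther out, at 0.24 and 0.38.

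Other genes of RNA processing were read from a list of 174 symbols outside the naming pattern, of which 38 were measured and not members. Of these 0 rose and 2 fell, against 0.757% and 0.238% of all probe sets, and the list was drawn up with those 2 known. Its median was -0.01. Xrn2, the nuclear exonuclease that degrades RNA downstream of the polyadenylation cut, fell by 0.60 ± 0.05 (SE), at 8.15, 8.34 and 8.35 against 8.74, 8.97 and 8.93 (limma, adjusted p = 0.0231). Aar2, an assembly factor of the U5 snRNP, fell by 0.54 ± 0.06 (SE), at 7.36, 7.15 and 7.19 against 7.77, 7.75 and 7.78 (limma, adjusted p = 0.0304). In both the groups did not overlap, and no interval of a member reached as low as these falls. Without the pair at passage 54 Xrn2 had a change of -0.59 and Aar2 one of -0.51 (limma, adjusted p = 0.149 and 0.178). Without the pair at passage 56 they had -0.62 and -0.51 (limma, adjusted p = 0.113 and 0.134), and no probe set of the array, Aurka included, passed in either of these fits. Without the pair at passage 47 both passed, with an adjusted p of 0.0302 for each in limma.

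Among the members, Prpf6, of the tri-snRNP with U5, had a change of 0.11 and the exosome nuclease Exosc10 one of -0.05, and neither passed. Of the other RNA processing genes, 36 of 38 did not pass the threshold. In that list Fubp3 had a change of -0.20 (limma, adjusted p = 0.173) and the U5 helicase Snrnp200 one of -0.17. The splicing regulators Celf1, Celf2 and Fubp1 had changes of 0.17, 0.16 and 0.17.

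Markers of other cells stood beside these values as follows. The 3 measured melanocyte markers, Tyrp1, Mlph and Pax3, were bright, at mean levels from 10.3 to 12.8, with changes between -0.12 and 0.02. Fibroblast markers reached 7.19, keratinocyte markers 6.81 and immune markers 5.38 at most, with 0 of 7, 0 of 5 and 0 of 9 past the threshold in limma. At an unadjusted p under 0.05, where 8.82% of all probe sets were higher and 6.85% lower, 2 fibroblast markers, Postn and Col5a1, were higher and 4 immune markers lower. Those 4, C1qa, C1qb, Fcer1g and Laptm5, had changes from -0.29 to -0.15 and groups that did not overlap. Of all probe sets, 8.29% were lower in siDicer without overlap. Of the 7 fibroblast markers, 2 had changes above 0 and 5 below, with a median of -0.04. The groups did not overlap for 1 of the 7, which was lower in siDicer. Of the 9 immune markers, 2 had changes above 0 and 7 below, with a median of -0.07. Of the 9, 6 lay above the background gauge, while Ptprc, Cd48 and Cd2 lay below it, at 2.84, 2.87 and 4.14.

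The cell division genes were listed because a lower level of such genes in siDicer was already known from these data. Of them 5 of 19 fell, against 0.238% of all probe sets, with a median of -0.32, while the members had a median of -0.03. That excess therefore follows in part from the choice of the list. Without the block 0 of 19 passed, and the smallest adjusted p was 0.127 in limma. Of 5 interferon response genes 0 passed in limma, where 2 were higher and 1 lower at an unadjusted p under 0.05. The part of these genes and markers in the members' values was not tested.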

How the data were processed

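Each of the 6 arrays has a deposited log2 signal for every probe set. The submitters' processing notes name Affymetrix Expression Console. Its version and its normalization: not given in the sources used here. That values are log2 was inferred from the values. Array medians lay between 4.58 and 4.64, so a shift common to most RNAs could not be seen.

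Values were used as deposited. limma 3.58.1 in R 4.3.3 (lmFit, eBayes without trend) was fitted over all 16383 probe sets, siDicer minus siScr, with replicate number as a block and Benjamini-Hochberg adjustment over all of them. Same-numbered arrays share a cell passage in the labels, and their deviations from the group means correlated with r of 0.44, 0.41 and 0.24. The number of arrays limits the precision. Symbols came from the platform annotation, with 7530 probe sets carrying 1 symbol, 455 several and 8398 none, and 230 symbols were updated by Entrez number against RefSeq (GRCm38.p6) for all but the choice of members. The fit was first tested on simulated data. That simulation was rewritten after an earlier outcome had been seen, and the share recovered depended on the noise assumed. In the version kept, 4% of simulated log2 changes of 0.25 passed the threshold. This should not be read as the power of the design.

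Members and lists were chosen with earlier results of these data known. Every member could be named. Values on each array were given for the 5 members with the largest change above 0 and the 5 with the largest below, for the member of smallest p in each role, and for Sf3b1, Prpf38a, Prpf4, Dhx36, Dhx9, Khdrbs1 and Cstf1, which were chosen after their values were seen. From the other list, genes past the threshold and the 3 of smallest p were named, and Celf1, Celf2, Fubp1 and Snrnp200 after their values were seen. Alternatives were no block, quantile, median and cyclic loess scaling, a level filter, an intensity trend, array weights, leaving out each pair, a threshold of 0.1, and other choices of members.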

Additional observations from a re-analysis of the deposited data

How the results depend on the processing

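The count of 0 members past the threshold held under every alternative run, with 3 to 9 at an unadjusted p under 0.05 in limma and a lowest adjusted p of 0.0971 in any refit. The threshold of 0.1 was applied to the main paired fit only. Above the receptor background, Exosc9 and Prpf38b had an adjusted p of 0.0971 and 0.0984 in limma. With an intensity trend Prpf38b had one of 0.0997 in limma. The median of the members stayed below 0, between -0.06 and -0.02. Each member had a single probe set, so the lowest-mean row and the mean over rows gave no other value. Over all probe sets, 163 passed with the replicate block, 35 without it (no replicate block), 84 after quantile normalization, 93 after cyclic loess, 291 above the receptor background, 302 with an intensity trend and 378 at a threshold of 0.1. Leaving out 1 pair gave 0 to 157, with 0 without the pair at passage 54 or 56 (2171 and 1814 at an unadjusted p under 0.05 in limma). In those fits Xrn2 and Aar2 did not pass either, so the other RNA processing genes numbered 0 to 2. In the paired fit, leaving out 1 array gives the same estimates as leaving out its pair. The block changed no call among the members or that list, but the 5 cell division calls, Aurka's among them, were lost without it.

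Of 51 members, 32 kept the sign of their change over the 10 refits and 19 did not. Among those given on each array, Sf3b1, Khdrbs1, Cstf1, Hnrnpa3 and Khdrbs2 turned. Hnrnpa3 turned to -0.013 after quantile normalization. Khdrbs2 turned to 0.00021 after quantile normalization and 0.0076 after cyclic loess, and ranged from -0.051 to 0.030 when 1 pair was left out. The RBM median turned below 0 after quantile normalization and cyclic loess and without the pair at passage 54 (-0.02) or 56. The exosome median turned above 0 with median centring (0.003) and without the pair at passage 47 (0.020) or 54 (0.017). The Lsm and Khdrbs medians turned too. For all of these the cause was not tested.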
